A study of Mus musculus with 5 samples.

Results

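The genes described here are tumor necrosis factor (Tnf), its receptors and a set of signalling proteins downstream of them, measured in single cells of the mouse kidney after unilateral ischemia-reperfusion. The members were taken by symbol from the deposited count matrix, and all 10 were found once each among its 32285 genes: Tnf, Tnfrsf1a, Tnfrsf1b, Traf1, Traf2, Tnfaip3, Ripk1, Ripk3, Mlkl and Tnfrsf12a. The kidneys came from male C57BL/6J mice, wild type and 6 to 8 weeks old, in which the vessels of the left kidney were clamped for 35 min while the right kidney was left in place. The labels give 5 conditions with 1 sample each, namely a sham operation without clamping and acute kidney injury (AKI) at day 1, day 3, day 14 and day 28, and, per the labels, each kidney sample was taken from 3 mice. Single-cell libraries were made with a droplet kit that counts the 3′ end of each mRNA with a unique molecular identifier (UMI). The matrix holds 5 libraries, told apart by the number that ends each cell barcode, and no label ties that number to a condition. The study's methods describe a merge of more matrices than the libraries found here, so whether a library holds 1 mouse or several is not settled by the files. The matrix was for this reason read as a single pooled sample. No condition was compared with another, no test was run between cell classes either, and the libraries are named below by number only.

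TNF is made as a membrane protein on activated myeloid and lymphoid cells and is cut loose by the protease ADAM17. It binds a pair of receptors, of which Tnfrsf1a (TNF receptor 1) is found on most cell types and carries a death domain, whereas Tnfrsf1b (TNF receptor 2) is largely found on leukocytes and endothelium. The receptors recruit the adaptors Traf2 and Traf1 and the kinase Ripk1, and the resulting complex activates NF-kB, a transcription factor whose own inhibitors include Tnfaip3 (A20), a ubiquitin-editing enzyme induced by TNF itself. When this branch fails, Ripk1 can engage Ripk3, which phosphorylates the membrane-rupturing protein Mlkl in the form of cell death called necroptosis. Tnfrsf12a (Fn14) is a separate member of the receptor family. It binds TWEAK, the product of Tnfsf12, and is known for its induction in injured epithelium.

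In the called cells, 57757 passed the filters, with a median of 4603 UMIs and medians between 4038 and 5324 UMIs in the 5 libraries. They fell into 17 cell classes named from marker genes, 9 of kidney cells and 8 of immune cells, and 7485 cells kept no name. The named kidney classes held 44867 cells and the named immune classes 5405. The labels call the cells goblet cells, but of 7 goblet cell markers Zg16 had no UMI and the others had between 2 and 55 UMIs in all cells, so the marker-based classes were used. Of the 57403 barcode sequences, 353 (0.615%) occurred in more than 1 library. Levels are given as UMIs per 1000000 UMIs of the class (CPM) with 95% intervals that cover counting error only, and a level is compared between classes for the same gene, never between genes. Library 3 held 9750 of the 11597 injured epithelial-like cells, and library 5 held 125 of the 5405 named immune cells, so that every pooled value weighs the libraries unequally.

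The Tnf gene (ENSMUSG00000024401) lies on chromosome 17 (GRCm38 here and below, 35199381 to 35202007, minus strand). The study also measured Tnf by PCR, and its primer pair is shown here because it marks which part of the transcript that assay reads. The forward primer falls in exon 3 at chr17:35200878-35200902 and the reverse primer in exon 4 at chr17:35200434-35200456 of the 4-exon transcript Tnf-201, both wholly in coding sequence, and the product of 175 bases spans the intron between them.
Tnf forward: catcttctcaaaattcgagtgacaa
Tnf reverse: tgggagtagacaaggtacaaccc
A promoter is shown for Tnfaip3, because it was the only member whose window of 250 bases before a RefSeq start site (GRCm38.p6) held a match to the 10-base NF-kB consensus on either strand. All 10 members had such a window, 12 in all, and 2382 of 32851 windows (7.25%) held a match. The Tnfaip3 window, chr10:19015411-19015660 on the minus strand, held 2 matches, in capitals, at 125 to 116 and at 12 to 3 bases before the start site. In GENCODE the gene itself reaches to 19015657, so both matches lie inside it there.
Tnfaip3 promoter: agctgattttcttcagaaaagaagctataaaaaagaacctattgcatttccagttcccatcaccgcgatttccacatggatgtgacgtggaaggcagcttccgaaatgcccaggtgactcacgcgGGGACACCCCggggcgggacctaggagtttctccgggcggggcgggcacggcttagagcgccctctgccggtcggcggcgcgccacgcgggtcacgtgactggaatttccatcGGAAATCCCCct
The absence of a match in the other windows, Tnf included, says only that these letters are not in those 250 bases.

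Most members were at a higher level in immune cells. Summed over all named classes, 7 of the 10 members were at least 2-fold higher in immune-like than in kidney-like cells, 1 was at least 2-fold lower and 2 were neither, whereas 19.6% of all 15840 genes with at least 50 UMIs were at least 2-fold higher and 35.2% at least 2-fold lower. The median log2 ratio of the members was 3.49 and that of all genes tested was -0.39. The members that were higher were Tnf, both TNF receptors, Traf1, Tnfaip3, Ripk3 and Mlkl. Traf2 and Ripk1 were neither, and Tnfrsf12a was the member that was lower. Each of the 7 kept its direction in every library in which both groups had a UMI. Pooled over libraries, the kidney-like level of each of the 7 lay under its level in barcodes taken as empty droplets. Their ratios were thus taken over a level that was not above this background. Of the pooled ratios, 2 moved more than 1.5-fold without 1 library, the log2 ratio of Tnf from 6.69 to 7.29 without library 1 and that of Mlkl from 2.35 to 3.12 without library 3. The kidney-like sum rested mostly on proximal tubule-like and injured epithelial-like cells, with 198531623 and 61669077 of its 274787286 UMIs. Other kidney classes exceeded the immune-like level for some members. Endothelial-like cells had 182 CPM of Tnfrsf1a, against 97.6 CPM in immune-like cells. Their Ripk3 level of 13.2 CPM (8.99 to 18.8) had an interval that included the immune-like 12.8 CPM. Urothelial-like cells had 8.36 CPM of Mlkl against 3.10 CPM, and macrophage-like cells held 38 of the 48 immune-like Mlkl UMIs.

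**Figure D1:**
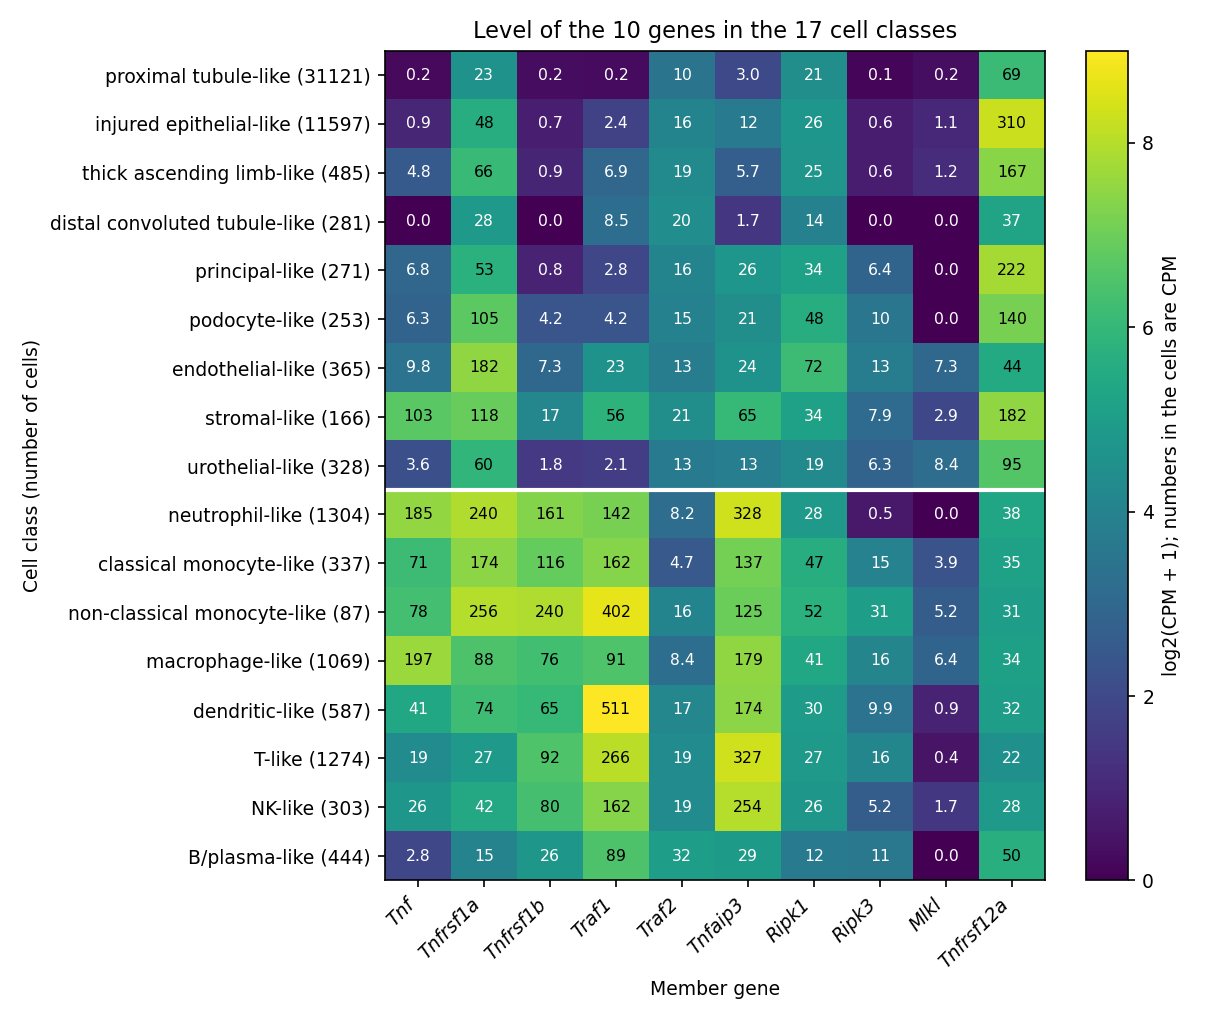
Level of the 10 members (columns) in the 17 cell classes (rows, number of cells in parentheses), with the 9 kidney classes above the white line and the 8 immune classes below it. Colour is log2(CPM + 1) and the printed numbers are CPM; Tnf stands out in the neutrophil-like and macrophage-like rows and Tnfrsf12a in the injured epithelial-like row, at 310 CPM.

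Tnf had 2465 UMIs in 1093 of all cells. Its level was 115 CPM (95% interval 109 to 120) in immune-like cells and 1.11 CPM (0.989 to 1.24) in kidney-like cells, a 103-fold difference (log2 ratio 6.69, 6.52 to 6.87). The immune classes held 72.1% of all Tnf UMIs, and the macrophage-like class alone held 47.3%. Macrophage-like cells stood first at 197 CPM (186 to 209) and neutrophil-like cells next at 185 CPM (166 to 206), and these intervals overlapped. Classical and non-classical monocyte-like cells followed among the immune classes at 71.3 and 78.3 CPM, dendritic-like cells at 41.3, NK-like cells at 26.1, T-like cells at 19.3 and B/plasma-like cells at 2.77 CPM. Proximal tubule-like cells, the largest class, had 32 Tnf UMIs in 31121 cells (0.161 CPM), and distal convoluted tubule-like cells had none, where 3 UMIs would have been 2.54 CPM. The barcodes taken as empty droplets carried 0.159 to 6.47 CPM of Tnf depending on the library. Over all libraries they carried 1.76 CPM (1.32 to 2.30), above the kidney-like level, so the fold difference was taken over a level not above background.

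A Tnf UMI was seen in 33.5% of macrophage-like cells (30.7% to 36.4%) and in 16.9% of neutrophil-like cells (14.9% to 19.1%), at median depths of 4100 and 1277.5 UMIs. With every cell reduced at random to 1000 UMIs, and shallower cells left out, the shares were 14.2% of 1026 macrophage-like cells (12.1% to 16.5%) and 15% of 998 neutrophil-like cells (12.9% to 17.4%), and these intervals overlapped. The same share was 0.0139% in 28824 proximal tubule-like cells, against 0.103% before thinning at a median depth of 5677 UMIs. The gap between the myeloid classes in this share was thus within counting error once depth was equal.

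The libraries differed in how much Tnf each myeloid class carried. In macrophage-like cells of libraries 1 to 5 the level was 345, 196, 189, 56.6 and 155 CPM, so that library 1 was highest and library 4 lowest, 6.09-fold apart with intervals that did not overlap. In neutrophil-like cells of libraries 1 to 4 it was 204, 191, 150 and 284 CPM, and here library 4 was highest and library 3 lowest. The clusters described next were unevenly spread over these libraries: I01 made up 488 of the 510 neutrophil-like cells of library 3, I06 made up 125 of the 211 of library 4, and library 2 held 257 cells of I06 and 208 of I14. Library 5 held only 3 neutrophil-like cells and was not read for this class. The orders of the libraries in the macrophage-like and the neutrophil-like class were thus not the same.

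The question whether neutrophils or monocytes and macrophages carry more Tnf was taken up directly, in named cells only. Among the unnamed clusters left out were I02 (598 cells) and I12 (301 cells), in both of which proximal tubule markers scored highest. I02 had Mmp9, S100a8 and S100a9 among its leading genes, and I12 was led by Adgre1, C1qb and Lrp1. Summed over the 1304 neutrophil-like cells the level was 185 CPM, and over the 1493 monocyte/macrophage-like cells it was 172 CPM (163 to 182). The log2 ratio of 0.11 had an interval from -0.07 to 0.28 that included 0. In this comparison 13.8% of 8950 genes were at least 2-fold higher and 23.1% at least 2-fold lower in neutrophil-like cells, and of the 9 members measured 1 was higher, 1 was lower and Tnf was neither. By library the log2 ratio was -0.70, 0.03, 0.13 and 2.48 in libraries 1 to 4. The intervals of libraries 1 to 3 included 0, and that of library 1 (-1.62 to 0.09) rested on 13 neutrophil-like UMIs. Only that of library 4 (1.97 to 2.99) did not. Without library 4 the pooled log2 ratio was -0.21 and without library 1 it was 0.41, so that the sign rested on single libraries.

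Within the myeloid classes Tnf was uneven. The macrophage-like cluster led by Ccl8, C1qa and C1qc (I05, 429 cells) had 362 CPM (332 to 393), against 123 in the cluster led by Pf4, Ccl7 and Arg1 (I07, 403 cells), 156 in the cluster led by Gpnmb, Mmp12 and Trem2 (I17, 174 cells) and 137 in a cluster led by cell cycle genes (I21, 63 cells). Library 3 supplied 300 of the I07 cells, and libraries 1 and 2 supplied 192 and 154 of the I05 cells. Among neutrophil-like clusters, the one led by Mmp9, Il1r2 and Siglecf (I06, 412 cells) had 361 CPM (311 to 416), the one led by Retnlg, S100a8 and S100a9 (I01, 663 cells) had 135 (113 to 160) and the one led by Trem1, Acod1 and Cxcr2 (I14, 229 cells) had 51.3 (29.3 to 83.2). These intervals did not overlap within the neutrophil-like class, and in the macrophage-like class I05 was apart from the other clusters. An unnamed cluster of 205 cells led by Ccl3, Hcar2 and Il1f9 (I15) had 498 CPM (419 to 588), above every named class. Its neutrophil markers summed to 35118 CPM, against 91258 CPM in the named neutrophil-like class and 134 CPM in the macrophage-like class.

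**Figure D2:**
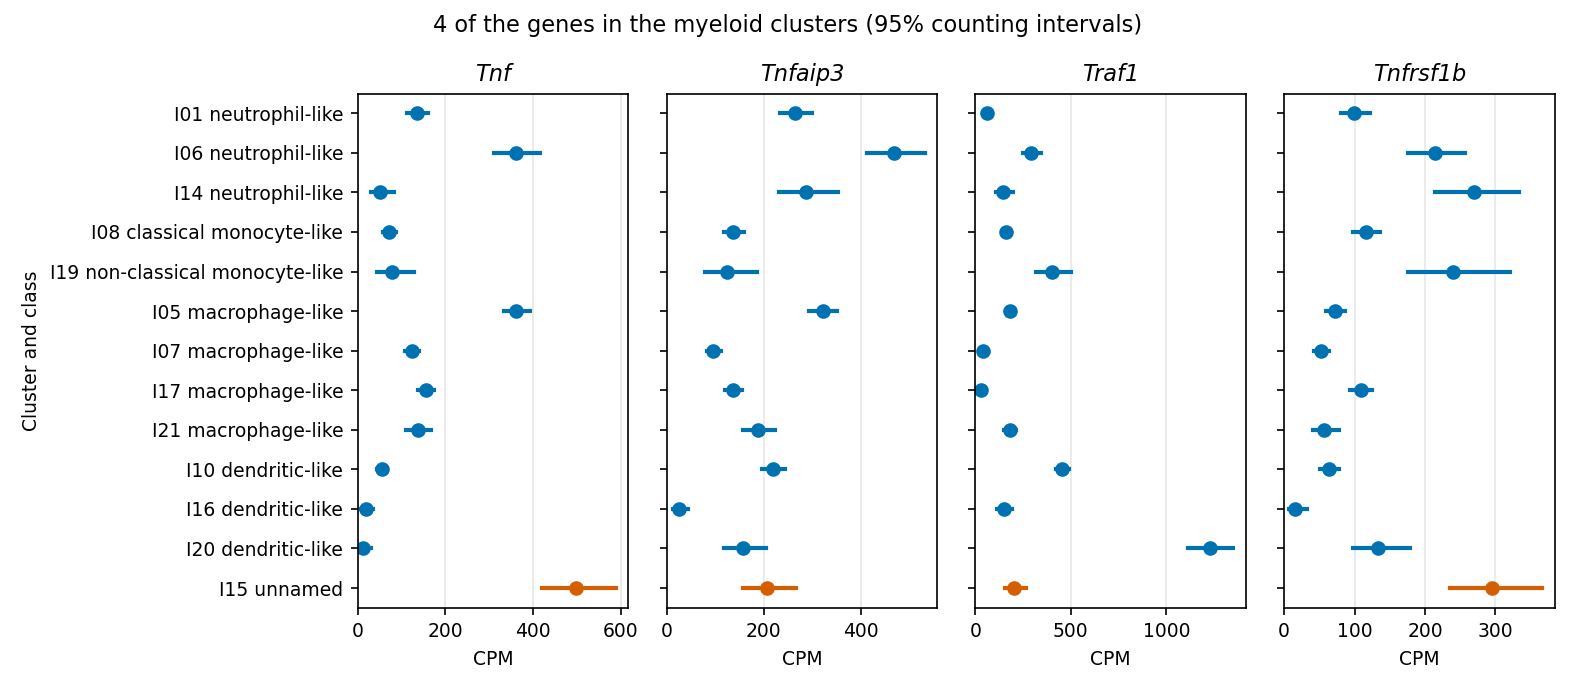
Level in CPM (x axes, linear from 0) of Tnf, Tnfaip3, Traf1 and Tnfrsf1b in the clusters of the myeloid classes and in the unnamed cluster I15, with points for the pooled level and bars for 95% counting intervals. Tnf is highest in I15 at 498 CPM and close to equal in I05 and I06, while Traf1 peaks at 1227 CPM in the dendritic-like cluster I20.

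Among kidney cells, stromal-like cells had the highest Tnf level, with 144 UMIs in 166 cells (103 CPM, 86.7 to 121), an interval that overlapped those of both monocyte-like classes. All 144 UMIs lay in the cluster led by Col3a1, Dcn and Col1a1, and the cluster led by Myh11, Sparcl1 and Rgs5 had none. The UMIs came from 31 cells, and the top 10 of them held 66.7%. These 31 cells had a median of 17998 UMIs and macrophage markers at a summed 7765 CPM, against 4430 UMIs and 1432 CPM in the 135 stromal-like cells without Tnf. In macrophage-like cells with Tnf the same markers summed to 30958 CPM. Endothelial-like cells had 23 Tnf UMIs, of which 17 lay in 1 cell. The 5 endothelial-like cells with Tnf had a median of 14850 UMIs and macrophage markers at 735 CPM, against 3831 UMIs and 340 CPM in those without. Such concentration was also seen in a myeloid class. The 92 Tnf UMIs of classical monocyte-like cells lay in 46 cells, the top 10 of which held 54.3%. In both the stromal-like and the endothelial-like class, the cells with Tnf were deeper and held more macrophage marker UMIs than those without. The part of those markers in the Tnf level was not tested.

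**Figure D3:**
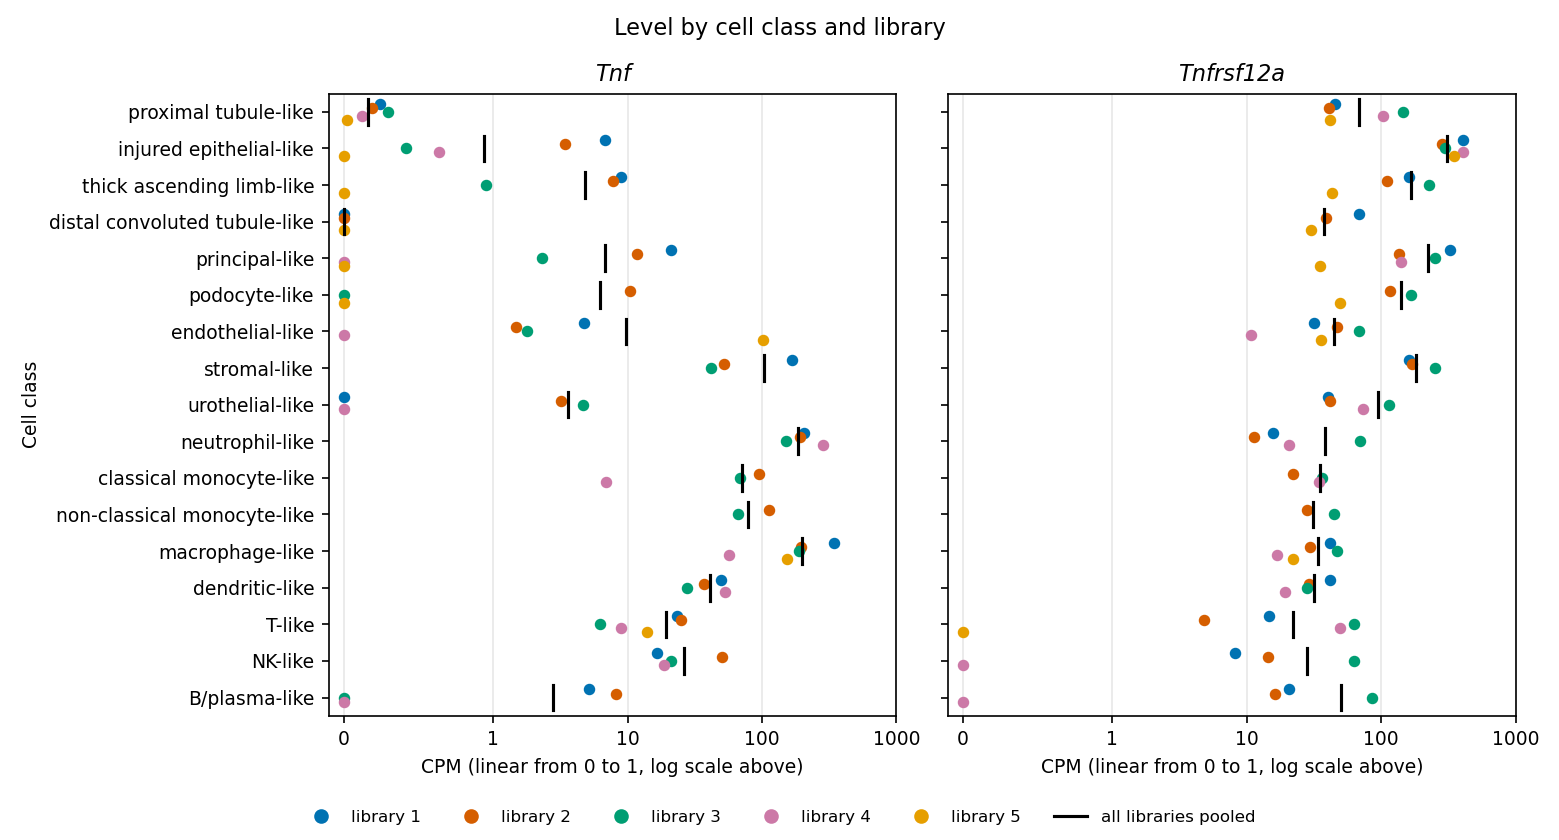
Level of Tnf (left) and Tnfrsf12a (right) in each cell class (rows), with 1 point per library that held at least 20 cells of the class and a black line for the pooled level. The x axes are in CPM, linear from 0 to 1 and logarithmic above; Tnf points are highest in the macrophage-like and neutrophil-like rows, and Tnfrsf12a points of the injured epithelial-like row lie between 283 and 406 CPM.

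The receptors were distributed differently from each other. Tnfrsf1a (ENSMUSG00000030341, chr6:125349362-125362484, plus strand) had UMIs in every class, with 8837 UMIs in kidney-like cells (32.2 CPM, 31.5 to 32.8) and 1512 in immune-like cells (97.6 CPM, 92.8 to 103), a log2 ratio of 1.60 (1.52 to 1.68). It was highest in non-classical monocyte-like cells at 256 CPM (189 to 338) and neutrophil-like cells at 240 CPM (218 to 264), whose intervals overlapped. Endothelial-like cells followed at 182 CPM (165 to 200), with 174, 177, 207, 119 and 196 CPM in libraries 1 to 5, and classical monocyte-like cells at 174 CPM (152 to 198). Podocyte-like and stromal-like cells had 105 and 118 CPM. Lymphoid classes were at the low end with 27.3 CPM in T-like and 15.2 CPM in B/plasma-like cells, next to the 23.4 CPM of proximal tubule-like cells. In empty droplets Tnfrsf1a was at 34.4 CPM, and 13.3 to 39.9 CPM by library, so that the pooled levels of these 3 classes were not above the pooled background. In library 1 alone, T-like cells at 38.0 CPM (25.8 to 53.9) and proximal tubule-like cells at 23.7 CPM (22.3 to 25.2) were above its 13.3 CPM (9.61 to 17.9). Endothelial-like cells thus stood among the myeloid classes for this receptor, and B/plasma-like cells stood last.

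Tnfrsf1b (ENSMUSG00000028599, chr4:145213463-145246870, minus strand) was read almost wholly from leukocytes among the named classes. It had 1397 UMIs in the 5405 immune-like cells (90.2 CPM, 85.5 to 95.1) and 141 in the 44867 kidney-like cells (0.513 CPM, 0.432 to 0.605), a log2 ratio of 7.46 (7.21 to 7.72). Non-classical monocyte-like cells had 240 CPM (176 to 320) and neutrophil-like cells 161 CPM (144 to 181), which overlapped by their intervals. Classical monocyte-like cells had 116, T-like cells 91.8, NK-like cells 80.1, macrophage-like cells 75.7 and dendritic-like cells 64.9 CPM. The highest kidney class was stromal-like at 17.1 CPM, followed by endothelial-like at 7.25 CPM (4.23 to 11.6). The 24 stromal-like UMIs lay in 17 cells, with 6 in 1 cell. Macrophage markers summed to 4293 CPM in the stromal-like class, and their part in this level was not tested. In empty droplets Tnfrsf1b was at 2.12 CPM (1.64 to 2.70), above the level of all kidney-like cells, and at 7.28 CPM in library 2. In neutrophil-like cells of libraries 1 to 4 the level was 235, 261, 85.0 and 111 CPM, with library 2 highest and library 3 lowest. In macrophage-like cells library 2 was again highest at 111 CPM. Neutrophil-like cells had more of both receptors than the pooled monocyte/macrophage-like cells. The log2 ratios were 1.16 (0.99 to 1.33) for Tnfrsf1a, which passed 2-fold, and 0.89 (0.69 to 1.09) for Tnfrsf1b. Both were positive in the 4 libraries read, but not beyond counting error in each. In library 3 the ratios were 0.30 (-0.03 to 0.61) for Tnfrsf1a and 0.08 (-0.33 to 0.48) for Tnfrsf1b. In library 4 that of Tnfrsf1b was 0.67 (-0.005 to 1.31). These 3 intervals included 0.

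**Figure D4:**
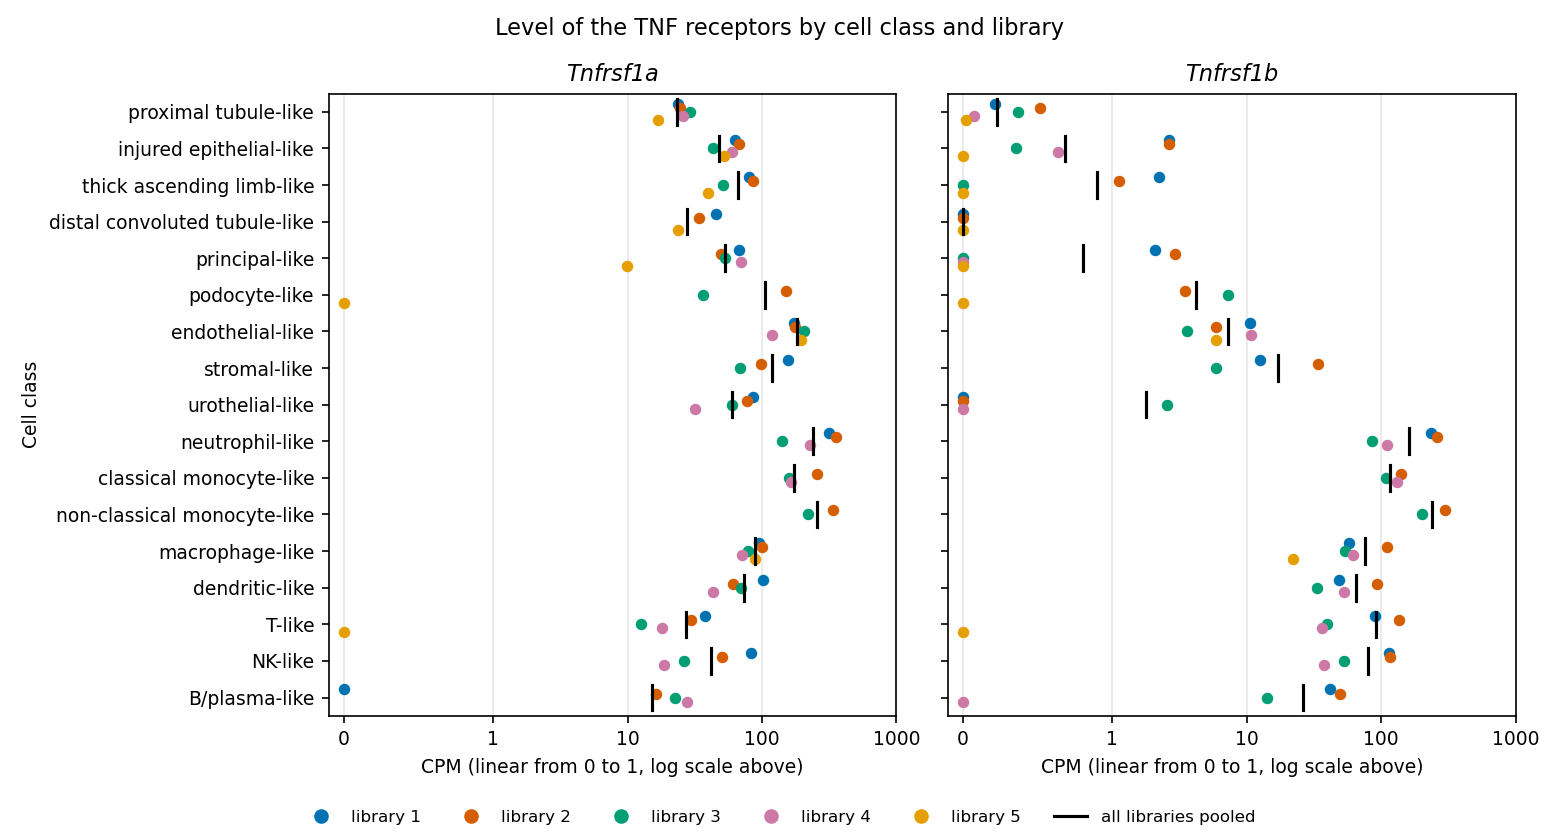
Level of Tnfrsf1a (left) and Tnfrsf1b (right) by cell class (rows) and library (coloured points, at least 20 cells), with the pooled level as a black line. The x axes are in CPM, linear from 0 to 1 and logarithmic above; Tnfrsf1a points lie above 10 CPM in most classes, whereas Tnfrsf1b points of the tubule classes all lie below 10 CPM.

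The adaptors also parted. Traf1 (ENSMUSG00000026875, chr2:34941750-34961772, minus strand), an adaptor without the enzymatic RING domain of its relatives and itself induced by NF-kB, had 202 CPM (195 to 209) in immune-like and 1.34 CPM (1.2 to 1.48) in kidney-like cells, a log2 ratio of 7.24 (7.08 to 7.40). Dendritic-like cells were first at 511 CPM (483 to 541), with 585, 561, 331 and 365 CPM in libraries 1 to 4, so that libraries 1 and 2 were above libraries 3 and 4. Non-classical monocyte-like cells followed at 402 CPM (317 to 502) and T-like cells at 266 CPM (247 to 286). By cluster Traf1 was highest in 68 dendritic-like cells led by Ccr7, Fscn1 and Ccl22, at 1227 CPM (1113 to 1350). It was 884 CPM (768 to 1013) in 114 T-like cells led by Tnfrsf4, Ctla4 and Tnfrsf18, a cluster that also had Foxp3 among its leading genes. In macrophage-like cells it ranged over the libraries from 30.9 CPM in library 4 to 189 CPM in library 1. Stromal-like cells had the highest kidney level at 55.7 CPM (44.0 to 69.5) and endothelial-like cells 23.0 CPM. The stromal-like Traf1 UMIs lay in 29 of 166 cells, the top 10 of which held 69.2%, and the level ran from 11.8 CPM in library 3 to 102 CPM in library 1.

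Traf2 (ENSMUSG00000026942, chr2:25517982-25546940, minus strand), the adaptor that bears a RING domain and recruits the cIAP ubiquitin ligases, was read at a low level in every class, with 8.09 CPM (7.11 to 9.16) in empty droplets. It had 12.8 CPM (11.1 to 14.7) in immune-like and 11.7 CPM (11.3 to 12.1) in kidney-like cells, a log2 ratio of 0.13 with an interval from -0.09 to 0.34 that included 0. The ratio was above 0 in 3 libraries and below 0 in 2. B/plasma-like cells had the highest level at 31.9 CPM (20.2 to 47.8) and classical monocyte-like cells the lowest at 4.65 CPM (1.71 to 10.1), and the levels of the latter, of neutrophil-like cells at 8.21 and of macrophage-like cells at 8.44 CPM were not above that background. The T-like, NK-like and dendritic-like classes, at 16.8 to 19.3 CPM, had intervals that overlapped those of the thick ascending limb-like and distal convoluted tubule-like cells.

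Tnfaip3 (ENSMUSG00000019850, chr10:19000910-19015657, minus strand), the A20 enzyme whose promoter is printed with the sequences, had 3292 UMIs in immune-like and 1638 in kidney-like cells, or 213 CPM (205 to 220) against 5.96 CPM (5.68 to 6.26), a log2 ratio of 5.16 (5.07 to 5.24). Neutrophil-like cells at 328 CPM (302 to 355) and T-like cells at 327 CPM (306 to 350) stood together at the top, and NK-like cells came next at 254 CPM (215 to 299). Macrophage-like and dendritic-like cells had 179 and 174 CPM, and B/plasma-like cells had 29.1 CPM. In neutrophil-like cells of libraries 1 to 4 the level was 219, 414, 258 and 341 CPM, and in macrophage-like cells of libraries 1 to 5 it was 192, 272, 96.7, 103 and 122 CPM. Library 2 was highest in both classes. The clusters that were high in Tnf were high in Tnfaip3 too, with 322 CPM in I05 and 470 CPM in I06, but I15 had 206 CPM (157 to 267), under the neutrophil-like class as a whole. Among kidney classes the stromal-like had 65.0 CPM, the principal-like 25.7 CPM and the proximal tubule-like 3.00 CPM (2.76 to 3.25). The 91 stromal-like UMIs lay in 44 cells and the 64 principal-like UMIs in 37, and the top 10 cells held 56% in each. By library the principal-like level ran from 11.6 CPM in library 3 to 50.2 CPM in library 1. The part of macrophage markers in the stromal-like level was not tested.

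Of the necroptosis genes, Ripk3 and Mlkl gave the smallest counts of all members and Ripk1 did not. Ripk1 (ENSMUSG00000021408, chr13:34002363-34037147, plus strand), the kinase shared by the NF-kB and the death branch, was read in every class and was 34.1 CPM (31.2 to 37.1) in immune-like and 22.4 CPM (21.9 to 23.0) in kidney-like cells, a log2 ratio of 0.60 (0.47 to 0.73) that did not reach 2-fold. Endothelial-like cells were first at 71.7 CPM (61.3 to 83.4), with 71.9, 97.4, 37.7, 108 and 59.4 CPM in libraries 1 to 5. An unnamed cluster of 95 cells led by Ednrb, Kdr and Ehd3 had 153 CPM (97.9 to 227) from 24 UMIs, and all 95 cells were of library 2. In empty droplets of libraries 1 to 5 Ripk1 was at 4.63, 24.3, 18.5, 25.7 and 18.6 CPM, against 13.6, 22.0, 27.0, 20.9 and 21.6 CPM in proximal tubule-like cells of the same libraries.

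Ripk3 (ENSMUSG00000022221, chr14:55784995-55788865, minus strand) had 408 UMIs in all cells, and 198 of them lay in immune-like cells (12.8 CPM, 11.1 to 14.7) against 142 in kidney-like cells (0.517 CPM, 0.435 to 0.609). The log2 ratio was 4.63 (4.31 to 4.95). Non-classical monocyte-like cells were first at 31.3 CPM (11.5 to 68.2) from 6 UMIs. Macrophage-like cells had 16.0 CPM (13 to 19.6), T-like cells 16.3 (11.8 to 22.0), endothelial-like cells 13.2 (8.99 to 18.8) and proximal tubule-like cells 0.0957 CPM (0.0576 to 0.149). Among the myeloid classes neutrophil-like cells had the lowest level, with 1 UMI in 1304 cells (0.547 CPM, 0.0139 to 3.05) against 120 UMIs in monocyte/macrophage-like cells (16.2 CPM). That log2 ratio was -4.89 with an interval from -10.20 to -2.38. Within macrophage-like cells the cluster led by Pf4, Ccl7 and Arg1 had 27.5 CPM (20.4 to 36.3) and the cluster led by Ccl8, C1qa and C1qc had 8.40 CPM (4.47 to 14.4), the reverse of their order for Tnf. Library 3 supplied most of the former, and Ripk3 in macrophage-like cells ran from 9.97 CPM in library 1 to 30.8 CPM in library 3, so that cluster and library were not set apart.

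Mlkl (ENSMUSG00000012519, chr8:111311797-111338177, minus strand) had 243 UMIs in all, and only 48 lay in immune-like cells (3.10 CPM, 2.29 to 4.11) against 167 in kidney-like cells (0.608 CPM, 0.519 to 0.707), a log2 ratio of 2.35 (1.86 to 2.82). Urothelial-like cells had 8.36 CPM (5.56 to 12.1), endothelial-like cells 7.25 CPM (4.23 to 11.6) and macrophage-like cells 6.42 CPM (4.54 to 8.81), and the order of these classes was within their counting error. Neutrophil-like cells had no Mlkl UMI, where 3 UMIs would have been 1.64 CPM. Against that floor the level was at least 3.62-fold lower than the 5.94 CPM of monocyte/macrophage-like cells, and the 95% counting interval of the log2 ratio ended at -1.5, a smaller difference. T-like cells had 1 UMI and B/plasma-like cells none. The class that was high in Tnf and in both its receptors, the neutrophil-like, was thus at or near 0 for Ripk3 and Mlkl at this depth, while it had 52 UMIs of Ripk1 (28.5 CPM, 21.3 to 37.3).

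**Figure D5:**
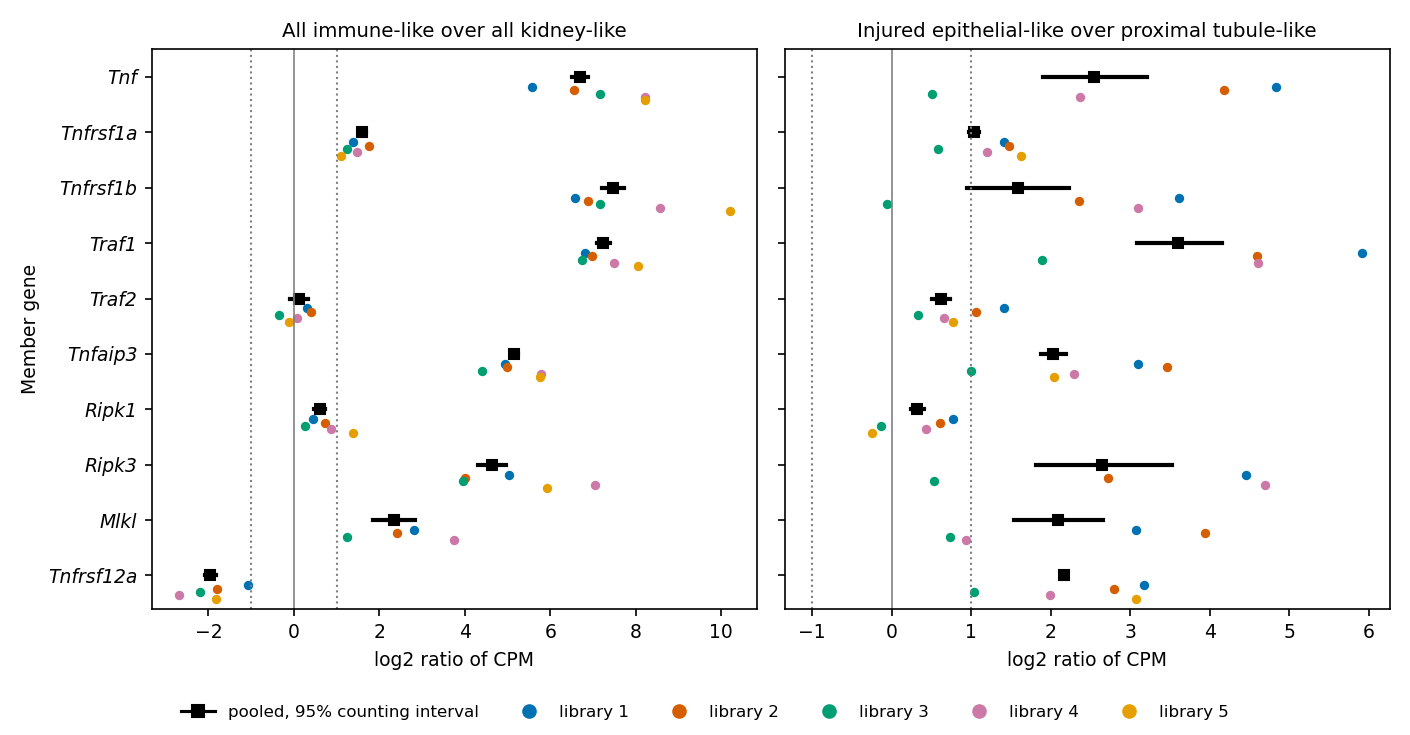
Log2 ratio of CPM (x axes) of the 10 members between all immune-like and all kidney-like cells (left) and between injured epithelial-like and proximal tubule-like cells (right). Black squares and bars are pooled values with 95% counting intervals, coloured points are single libraries in which both groups had a UMI, and dotted lines mark 2-fold; on the right the points of library 3 lie left of most others.

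Tnfrsf12a (ENSMUSG00000023905, chr17:23675445-23677468, minus strand) was the member with the most UMIs, 39325 in 16426 cells, and the one that was lower in immune-like cells. Its level was 126 CPM (125 to 127) in kidney-like and 32.5 CPM (29.8 to 35.5) in immune-like cells, a log2 ratio of -1.95 (-2.08 to -1.83), below 0 in all 5 libraries. Injured epithelial-like cells were first at 310 CPM (306 to 314), above principal-like cells at 222 CPM (204 to 242), stromal-like cells at 182 CPM (160 to 206) and thick ascending limb-like cells at 167 CPM (153 to 181). Proximal tubule-like cells had 68.7 CPM (67.6 to 69.9), endothelial-like cells 44.4 CPM and distal convoluted tubule-like cells 37.2 CPM. In empty droplets of libraries 1 to 5 the level was 20.4, 47.3, 167, 107 and 70.7 CPM, and in immune-like cells of the same libraries it was 31.5, 21.2, 52.3, 21.0 and 12.9 CPM, lower than in the empty droplets in 4 libraries. The part of free RNA in the level of immune-like cells was not tested. Shares of cells with a Tnfrsf12a UMI after thinning to 1000 UMIs were 23.3% (22.4% to 24.1%) in injured epithelial-like, 6.21% (5.93% to 6.49%) in proximal tubule-like and 2.79% (1.91% to 3.91%) in T-like cells, where before thinning they were 51.4%, 24.9% and 3.77%.

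Injured epithelial-like cells were set against proximal tubule-like cells because Tnfrsf12a is known as an injury-induced receptor. The clustering used neither the members nor the pathway genes, and the class was named with a list of 10 injury markers that holds Havcr1, Krt20, Sox9 and Clu. Its largest clusters, P02 and P04, scored higher for proximal tubule markers (0.363 and 0.281) than for injury markers (0.144 and 0.0907) and were named injured because Havcr1 stood among their leading genes and no proximal tubule marker did. Injury markers summed to 1112 CPM in P02 and 1218 CPM in P04, against 660 CPM in proximal tubule-like and 19241 CPM in principal-like cells. A further cluster, K04, had no injury marker among its leading genes, and K07 was led by the distal tubule gene Slc12a3. Over libraries 1 to 5 the injured class had 406, 283, 300, 406 and 349 CPM of Tnfrsf12a, and the proximal tubule-like class had 45.0, 40.9, 146, 103 and 41.4 CPM. All 5 injured values lay above all 5 proximal tubule-like values. They also lay above the level in empty droplets of their own library, whereas the proximal tubule-like values lay above it in library 1 and below it in the other 4. The pooled log2 ratio was 2.17 (2.14 to 2.20), and by library it was 3.17, 2.79, 1.04, 1.98 and 3.08. The proximal tubule-like level was highest in library 3, where the ratio was smallest. The 2 large injured clusters that came from the proximal tubule part of the first clustering (P02 and P04, 10319 cells) had 299 CPM, and the other 4 injured clusters (1278 cells) had 367 CPM. Among single clusters, 283 cells led by Crct1, Fst and Slc14a2 had 503 CPM (470 to 539). The 5637 cells of P02, led by Fgb, Fgg and Fga, had 329 CPM (323 to 334), and Tnfrsf12a stood among their own 10 leading genes. The 4682 cells of P04, led by Gsta1, had 177 CPM (169 to 185), the lowest of the 6. Library 3 held 4332 of the P04 cells, and its empty droplets had 167 CPM (160 to 175), an interval that overlapped that of P04.

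Within the proximal tubule-like class Tnfrsf12a also ranged widely, from 23.3 CPM (20.1 to 26.7) in a cluster of 2830 cells to 153 CPM (145 to 161) in 1572 cells whose leading genes were of the cell cycle. The thick ascending limb-like class held a cluster at 44.0 CPM (32.1 to 58.9) and another at 221 CPM (202 to 241). These clusters also differed in library: 2649 of the 2830 cells were of library 1 and 1127 of the 1572 of library 3, and library 3 held 16 of the 259 cells of the lower and 131 of the 226 cells of the higher thick ascending limb-like cluster. Empty droplets had 20.4 CPM of Tnfrsf12a in library 1 and 167 CPM in library 3, and its part in these differences was not tested.

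Most other members were also higher in the injured class, but the smaller counts lay near or under the level in empty droplets. Of all 10, 8 were at least 2-fold higher and none at least 2-fold lower, beside 13.1% and 4.31% of the 14332 genes tested in this comparison. The median log2 ratio was 2.06 for the members and 0.15 for all genes tested. Traf1 had 2.38 CPM in the injured and 0.196 CPM in the proximal tubule-like class (log2 ratio 3.60, 3.08 to 4.15). Tnfaip3 had 12.3 against 3.00 CPM (2.03, 1.88 to 2.19) and Tnfrsf1a 48.0 against 23.4 CPM (1.04, 0.97 to 1.10). Tnf, Tnfrsf1b, Ripk3 and Mlkl rested on 37 to 65 UMIs in the injured class, at 0.600 to 1.05 CPM. Traf2 and Ripk1 were under 2-fold, at log2 ratios of 0.63 (0.51 to 0.74) and 0.32 (0.24 to 0.41), and Ripk1 was below 0 in libraries 3 and 5. In empty droplets of all libraries Tnf was at 1.76, Tnfrsf1b at 2.12 and Ripk3 at 1.01 CPM, above both classes. Mlkl at 0.783, Traf1 at 1.53, Tnfaip3 at 8.42 and Tnfrsf1a at 34.4 CPM there lay between the classes. In library 3 the injured class had 43.5 CPM of Tnfrsf1a, against 39.8 CPM (36.4 to 43.5) in empty droplets. Most Traf1 of the injured class, 119 of 147 UMIs, lay in the 1278 cells outside P02 and P04. Within P02 and P04 alone the log2 ratios over proximal tubule-like cells were 1.46 for Traf1, 1.52 for Tnf, 1.77 for Tnfaip3, 1.09 for Tnfrsf1b, 2.08 for Ripk3, 1.13 for Mlkl and 0.90 for Tnfrsf1a, the last under 2-fold. Within library 3, which held most injured cells, the log2 ratios were 0.50 for Tnf, -0.05 for Tnfrsf1b, 0.53 for Ripk3, 0.73 for Mlkl, 0.58 for Tnfrsf1a, 1.00 for Tnfaip3 and 1.90 for Traf1. Without library 3 they were 4.30 for Tnf, 3.15 for Tnfrsf1b, 3.80 for Ripk3, 2.94 for Mlkl, 3.24 for Tnfaip3 and 5.29 for Traf1, all above the pooled values. Summed over 10 markers, macrophage genes were at 283 CPM in the injured and 168 CPM in the proximal tubule-like class, and neutrophil genes at 291 and 372 CPM, against 29523 CPM of the macrophage genes in macrophage-like cells without Tnf. The part of these markers in the small counts of Tnf, Tnfrsf1b, Ripk3 and Mlkl was not tested.

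The cluster that led in several of these was the injured one with Vcam1, Stra6 and Ubd in the lead (K14, 224 cells). It had 44.8 CPM of Tnfaip3 (37.4 to 53.2), 24.3 CPM of Traf1 (18.9 to 30.7), 7.64 CPM of Tnf (4.79 to 11.6) and 5.55 CPM of Tnfrsf1b (3.17 to 9.02). The large cluster led by Fgb, Fgg and Fga had 12 CPM of Tnfaip3 (11 to 13.1) and 0.361 CPM of Tnf (0.202 to 0.595). Their Tnfrsf12a levels, 308 CPM (288 to 329) and 329 CPM (323 to 334), had intervals that overlapped, while those of Tnfaip3 and Tnf did not. The clusters differed in library, with 104 of the 224 K14 cells in library 2 and 4504 of the 5637 P02 cells in library 3. Empty droplets of library 2 had 6.47 CPM of Tnf, 7.28 CPM of Tnfrsf1b (4.31 to 11.5) and 21.4 CPM of Tnfaip3 (16.0 to 28.0), so that the pooled Tnf and Tnfrsf1b levels of K14 were not above the background of that library, though above that of all libraries pooled. In library 3 the empty droplets had 1.77 CPM of Tnf and 6.42 CPM of Tnfaip3.

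The wider pathway was read from 7 lists with 99 genes in all. Of 14 genes of the NF-kB module, 12 were at least 2-fold higher in immune-like cells, 1 was lower and the median log2 ratio was 2.29, where over all genes tested 19.6% were higher, 35.2% lower and the median was -0.39. The inhibitors Nfkbid (log2 ratio 6.27) and Nfkbie (4.73) and the subunit Rel (5.58) led this list, with Nfkbid at 306 CPM in neutrophil-like cells. Among 12 measured TNF superfamily ligands, 11 were higher (19.6% of all genes tested), led by Fasl, Cd40lg and Ltb at log2 ratios of 8.95, 8.44 and 8.29. Fasl was highest in NK-like cells at 181 CPM (148 to 219), and Cd40lg and Ltb in T-like cells at 50.1 and 610 CPM. Of 17 other receptors of the family that were measured, 11 were higher and 4 lower (19.6% and 35.2% of all genes tested). Of these, Tnfrsf18 and Tnfrsf4 had 243 and 242 CPM in T-like cells. In NK-like cells Tnfrsf18 had 225 CPM (188 to 267), an interval that overlapped that of T-like cells (225 to 263). The family member Tnfrsf13b was highest in B/plasma-like cells at 81.8 CPM.

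Of 20 genes of the receptor complex and its ubiquitin enzymes, 6 were higher in immune-like cells and 14 neither, beside 19.6% of all genes tested that were higher. Birc3, the cIAP2 ubiquitin ligase, led with a log2 ratio of 4.01 and 213 CPM (192 to 235) in neutrophil-like cells, and Tnip1, a partner of A20, and the kinase Map3k14 followed at 2.01 and 1.58. Among 5 genes of TNF shedding, Adam17 was higher at 49.6 against 13.9 CPM, Frmd8 was higher at a log2 ratio of 1.03, and Rhbdf1 was lower at -2.91. The cell death list had 3 of 10 genes higher and 1 lower, with a median log2 ratio of -0.45, next to 19.6% higher, 35.2% lower and a median of -0.39 over all genes tested. Zbp1, a sensor that can engage Ripk3, was at 46.2 against 0.349 CPM and was highest in classical monocyte-like cells at 106 CPM (89.2 to 126). Bid was lower at a log2 ratio of -1.40.

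Of 16 measured NF-kB target genes, 12 were higher in immune-like cells and 3 lower (19.6% and 35.2% of all genes tested), and the highest ratios belonged to Bcl2a1d, Il1b and Bcl2a1b, at log2 8.42, 8.24 and 8.21. The near-identical Bcl2a1 copies can share reads, so their single values are uncertain. Il1b reached 9898 CPM in neutrophil-like cells. In injured epithelial-like against proximal tubule-like cells, 11 of 15 measured target genes and 10 of 14 module genes were at least 2-fold higher and none lower, with medians of 2.38 and 1.19 on the log2 scale. These lists were counted over pooled libraries only and were not set against empty droplets. Library 3 held 9750 of the 11597 injured epithelial-like cells. None of the 9 measured genes of the cell death list passed 2-fold in that comparison, in which 13.1% of all genes were higher and 4.31% lower, and nothing is read from so small a count.

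Genes with the most similar pattern to each member over the 17 classes were sought among 12251 genes with at least 500 UMIs, by Pearson's r of log2(CPM + 1). The classes share libraries and free RNA, so r is a description. For Tnf they were Ccrl2 (r = 0.95), Ccl3 (0.93) and Nlrp3 (0.93), an atypical chemokine receptor, a chemokine and an inflammasome sensor, each highest in neutrophil-like or macrophage-like cells. For Tnfrsf1b they were Pik3cd, Itgb2 and Samsn1, at r between 0.98 and 0.99, and for Traf1 Fermt3, Twf2 and Coro1a, all at 0.96. Tnfaip3 was closest to Pfn1 (0.96), Selplg (0.95) and Arrb2 (0.95), and Tnfrsf1a to Ptpn12 (0.94), Ifitm2 (0.92) and Sh3glb1 (0.90). Ripk1 was closest to Rhbdf2 (0.89), Mef2a (0.86) and Ino80c (0.85), and Traf2 to Zfp62, Cbx7 and Zbtb10 at 0.81 to 0.82. Tnfrsf12a was closest to Stra6 (0.92), Cryab (0.92) and Mid1ip1 (0.89).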

How the data were processed

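The authors processed the reads with Cell Ranger (6.0 per the labels, 6.0.1 per the file header) against mm10 and deposited 1 matrix of raw UMI counts, 32285 genes by 10474594 barcodes, in which no cells had been called. From these counts, each library's cells were picked by the published Cell Ranger scheme: barcodes with at least 10% of the UMIs at the 99th percentile of the top 3000, then barcodes of at least 500 UMIs, at most 20000 per library (which set the limit at 661 UMIs in library 3), that differed from the profile of ranks 45000 to 90000 (10000 simulations, adjusted p at most 0.01). This called 70479 barcodes. As in the study's methods, 518 with under 200 genes were left out and so were those with more than 25% mitochondrial counts, 12671, some barcodes failing both limits, which left 57757 cells.

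Cells were normalised to a fixed total and logged, and clustered on 2000 variable genes, 30 principal components and 20 neighbours by Leiden at resolution 1.0 (leidenalg 0.10.2), the first clusters being clustered again within immune and kidney groups. The members and the pathway genes were left out of the variable genes. A cluster took the class whose markers scored highest if at least 3 were detected, except that a tubule cluster with more injury markers than markers of its own class among its leading genes was called injured epithelial-like, and was left unnamed if markers of a different class were more frequent among its 10 leading genes, if a further class also scored high, or if its depth was low and its leading genes included no marker. This rule was written after clusters had been seen. Doublets were kept. Scrublet (scanpy 1.11.5) marked under 1.2% of the cells of any library at its own threshold and none in libraries 4 and 5, so a fixed rate was removed as an alternative only.

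UMIs were summed per class, and per library where it held at least 20 cells of the class. Levels are CPM with exact Poisson intervals, shares have exact Clopper-Pearson intervals, and ratios have exact conditional binomial intervals, all at 95%. A count of 0 is bounded by 3 UMIs. A ratio was taken for genes with at least 50 UMIs in both groups together and called at 2-fold. No test was run, since the conditions cannot be assigned to libraries and cells are not replicates. Ratios within each library are given as values. All 10 members are described, with the 3 genes of each list that had the largest absolute log2 ratio among those with at least 100 UMIs, and the 3 genes of most similar pattern for members with at least 500 UMIs. Other genes with values are lead genes of clusters. The members and lists were chosen with earlier results of these data known. Coordinates are from GENCODE vM21 and RefSeq (both GRCm38). Parts of Ripk1 overlap Serpinb6a and pseudogenes, and parts of Traf2 and Mlkl overlap pseudogenes. Proteins of the members and the other experiments of the study were not analysed here, and some items are not reported here. The calling and the ratios were tested on simulated data.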

Additional observations from a re-analysis of the deposited data

Results flagged for a closer look

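Among the cells that kept no name, 2 clusters exceeded the pooled level of every named class by their counting interval and so held a signal outside the comparisons. The first was Tnf at 498 CPM in the 205 cells led by Ccl3, Hcar2 and Il1f9 (I15). The second was Ripk1 at 153 CPM in the 95 cells led by Ednrb, Kdr and Ehd3 (K23), which rested on 24 UMIs of library 2. Within library 2 this cluster was not apart. Non-classical monocyte-like cells of that library had 98.5 CPM, a level inside the counting interval of K23.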

How the results depend on the processing

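Of 17 other settings from the plan and 4 chosen after seeing the data, none turned the direction of a called ratio that was varied. In the comparison of neutrophil-like with monocyte/macrophage-like cells only Tnf was varied, so the called ratios of Tnfrsf1a and Ripk3 there were not. The 7 members higher and the 1 lower in immune-like cells stayed 7 and 1 under each of the 19 that apply. The Tnfrsf12a log2 ratio of injured epithelial-like over proximal tubule-like cells, 2.17, was at least 2-fold throughout. It was 1.99 with at most 10% mitochondrial counts, 2.25 without the highest doublet scores, 2.21 with equal weight for each library, 2.05 as a mean over cells, 2.22 after subtracting 5% of counts as free RNA, 2.03 at Leiden resolution 2.0, 2.04 with the members left in the clustering, 2.75 for cells whose own class led their marker UMIs, 2.0 to 2.61 without 1 library, and 2.42 without clusters P02 and P04. The Tnf log2 ratio of neutrophil-like over monocyte/macrophage-like cells, 0.11, stayed under 2-fold but moved to 0.38 after thinning to 1000 UMIs, to -0.19 at Leiden resolution 0.5, to 0.40 with the unnamed cluster I15 counted as neutrophil-like, and between -0.21 and 0.41 without 1 library. The class with the highest level was kept for 7 to 10 of the 10 members under the other alternatives and for 6 to 10 without 1 library, lowest without library 3. Tnfaip3 changed between neutrophil-like and T-like, and Tnf between macrophage-like and neutrophil-like. Tnfrsf1a and Tnfrsf1b changed between non-classical monocyte-like and neutrophil-like, and Mlkl from urothelial-like to non-classical monocyte-like or endothelial-like. In single settings Traf1 and Ripk1 moved to non-classical monocyte-like, Ripk3 to T-like and Traf2 to distal convoluted tubule-like. Only Tnfrsf12a kept its class in every setting. Tnfrsf1a in the injured class passed 2-fold in 12 of 19 alternatives, and Ripk3 in 18 of 19, with a lowest log2 ratio of 0.86. The causes of these shifts were not tested. A paired test of classes over libraries was not run, and their ratios within each library stand in the text as values. Depth limits Ripk3 and Mlkl most, with 408 and 243 UMIs in all cells.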
